A study of Mus musculus with 10 samples.

Results

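The Hsp70 family of heat shock proteins was followed in the hippocampus of mice that carry an extra copy of 1 of its genes. The 10 genes were taken by name: Hspa13, Hspa1b, Hspa2, Hspa4, Hspa4l, Hspa5, Hspa8, Hspa9, Hspa12a and Hspa14. They are 10 of the 19939 genes that the arrays measured. Of these, 9 had a probe set of their own. Hspa1b was read only by a probe set that also matches its near-identical neighbour Hspa1a, so its value is given as that of the Hspa1a/Hspa1b probe set and belongs to neither gene alone. Each gene with several probe sets was represented by the one with the highest mean, a choice that concerned only Hspa8 here.

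The arrays compared 5 Dp3Yah mice with 5 control littermates, 1 Affymetrix Mouse Gene 1.0 ST array per mouse. Dp3Yah mice carry a segmental duplication on mouse chromosome 16 from Hspa13 to App, a stretch homologous to part of human chromosome 21, and so have 3 copies of Hspa13, against 2 in controls. All 10 mice were males of 16 weeks, labelled as C57BL/6N, and the RNA came from the right and left hippocampus together. The study's methods instead describe backcrossing of the duplication lines towards C57BL/6J. The values are log2 hybridisation signals, so a difference of 1 is a doubling, and levels of different genes cannot be compared because each probe set binds with its own strength.

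Hsp70 proteins bind unfolded stretches of other proteins and release them in a cycle driven by ATP. J-domain proteins start the cycle by bringing clients and stimulating ATP hydrolysis, and nucleotide exchange factors end it. The family is spread over the cell: Hspa8, Hspa2 and the stress-inducible Hspa1a and Hspa1b work in the cytosol and nucleus, Hspa5 (BiP) and Hspa13 in the endoplasmic reticulum, and Hspa9 (mortalin) in mitochondria. Hspa4 and Hspa4l belong to the related Hsp110 branch and act as exchange factors. In neurons Hspa8 is known for stripping clathrin from synaptic vesicles.

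Array medians lay between 5.64 and 5.71, and the SD of the difference between any 2 arrays over all genes was 0.12 to 0.21. No 2 arrays were identical. The pyramidal cell markers of the hippocampus had array means of 8.83 to 9.25 in Dp3Yah mice and 8.78 to 9.06 in controls over 7 measured genes. All 8 microglial markers had a positive change (array means 7.63 to 7.81 in Dp3Yah mice, 7.51 to 7.60 in controls), and 7 of 8 dentate granule cell markers a negative one (7.40 to 7.67 in Dp3Yah mice, 7.57 to 7.80 in controls). The part of these shifts in the results below was not tested. In whole hippocampus, fewer cells of a type and less RNA per cell cannot be told apart.

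Hspa13 was the family member that rose in Dp3Yah mice. The gene (chromosome 16, positions 75755190 to 75767276 in GRCm38.p6) encodes a short Hsp70 protein associated with microsomes, which keeps the ATPase part of the family but lacks the usual peptide-binding part. The log2 value of Hspa13 was 9.07, 9.11, 8.88, 8.99 and 8.88 in the 5 Dp3Yah mice, against 8.62, 8.30, 8.31, 8.29 and 8.41 in the 5 controls. Every Dp3Yah mouse was above every control, and control replicate 1 stood above the other controls. Over all genes, 0.522% had every Dp3Yah mouse above every control and 0.391% had every Dp3Yah mouse below every control. No other family gene was separated in either direction.

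The mean of Hspa13 was 8.99 ± 0.10 in Dp3Yah mice and 8.39 ± 0.14 in controls (SD, n = 5 each). The change was 0.60 on the log2 scale, with an SE of 0.069 and a 95% interval of 0.45 to 0.75. As a fold this was 1.52, with an interval of 1.37 to 1.68 that covers the 1.5-fold ratio of gene copies. It passed at a limma adjusted p of 0.0122 over all genes, a threshold that 3 genes, or 0.015% of those measured, passed in the higher direction. An exact permutation test of the 10 values gave a two-sided p of 0.00794, the smallest that 5 mice against 5 allow. The call ended without Dp3Yah replicate 4 (adjusted p = 0.0538), control replicate 3 (0.0713), control replicate 4 (0.0688) or control replicate 5 (0.0571), and when all 35556 probe sets, named or not, were tested together (0.0749). The change itself stayed between 0.57 and 0.66 with any 1 mouse left out.

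**Figure D1:**
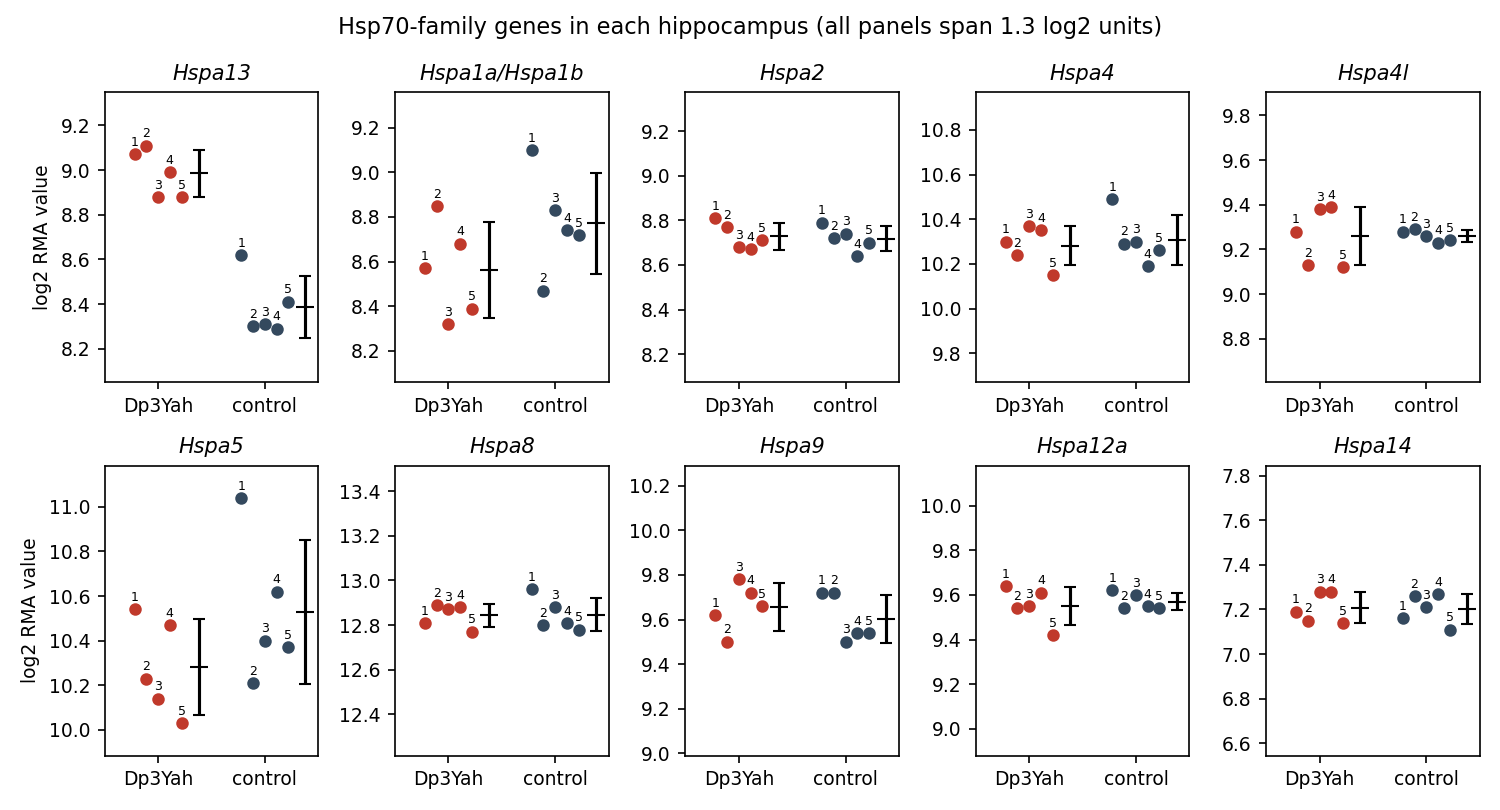
The log2 RMA value of each Hsp70-family gene in each mouse, with Dp3Yah mice in red and controls in dark blue, numbered by replicate. The horizontal mark and bar beside each group are the mean and SD (n = 5), every panel spans the same height, and the Hspa1a/Hspa1b panel is the shared probe set. Hspa13 is the panel in which the groups do not overlap, with the lowest Dp3Yah mouse at 8.88 and the highest control at 8.62.

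Hspa13 was set against its neighbours in the duplication, which share its copy number. Of the 17 measured genes from Hspa13 to Gabpa, 9 had a mean value above the median of all genes. Hspa13 had the highest change of these 9, and the other 8 lay between 0.28 for the ATP synthase subunit Atp5j and 0.58 for the adhesion molecule Ncam2. Relative to the mean of those 8 genes in the same mouse, Hspa13 was 0.17 higher in Dp3Yah mice than in controls. The SD of that relative value between mice was 0.12 in Dp3Yah mice and 0.11 in controls, the ranges of the groups overlapped, and the difference did not pass (exact permutation p = 0.0714, two-sided).

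Hspa5, the main Hsp70 of the endoplasmic reticulum and the sensor-bound chaperone of the unfolded protein response, did not follow Hspa13. Its log2 value was 10.54, 10.23, 10.14, 10.47 and 10.03 in Dp3Yah mice, against 11.04, 10.21, 10.40, 10.62 and 10.37 in controls. Control replicate 1 was far above all other mice and the ranges overlapped, with 2 of 5 Dp3Yah mice below every control. The change was -0.25 (SE 0.143, 95% interval -0.56 to 0.06, limma adjusted p = 0.922), and it was -0.12 without control replicate 1. With any 1 mouse left out it ran from -0.33 to -0.12. The 95% interval lies below the change of Hspa13 throughout. Hspa5 was one of the most variable genes between mice of a genotype, with a within-group SD of 0.28 that 1.37% of all genes reached.

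The promoter of Hspa5 carries the endoplasmic reticulum stress element, the sequence through which the unfolded protein response is known to raise this gene. The 250 bases before the annotated start (RefSeq, GRCm38.p6, chr2:34771840-34772089, plus strand) are printed here 5′ to 3′, with the match to the element (CCAAT, 9 bases of any kind, then CCACG) in capitals. The match lies at positions -65 to -47 from the start.
Hspa5: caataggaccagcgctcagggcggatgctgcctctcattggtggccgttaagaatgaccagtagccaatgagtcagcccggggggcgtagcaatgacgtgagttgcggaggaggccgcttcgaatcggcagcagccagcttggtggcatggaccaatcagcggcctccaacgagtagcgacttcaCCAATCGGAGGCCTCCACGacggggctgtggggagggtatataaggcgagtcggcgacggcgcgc

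That element, on either strand, was found in 0.113% of 32851 promoter windows of the same length. Hspa13, Hspa8, Hspa9, Hyou1, Sil1, Atf6, Grpel2, Hscb and Ubqln2 had no window and were not searched for any motif. Beyond the family and the other superfamily genes, the search took only the genes with the smallest unadjusted limma p from each chaperone list below. The other listed genes, among them Hsp90b1, Calr, Xbp1, Hsp90aa1 and Hspd1, were not searched for any motif. Among the other chaperone genes searched, the element was found before Dnajc3, Creld2 and Syvn1, which are shown because they are set beside Hspa5 below. The capitals mark the match and the lower case the 10 bases on each side, on the strand of the gene, and in Creld2 the match lies on the opposite strand. The windows are chr14:118937817-118937855, chr15:88819510-88819548 and chr19:6046522-6046560 (GRCm38.p6, plus strand).
Dnajc3: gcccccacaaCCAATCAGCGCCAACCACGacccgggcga
Creld2: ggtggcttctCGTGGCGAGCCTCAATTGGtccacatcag
Syvn1: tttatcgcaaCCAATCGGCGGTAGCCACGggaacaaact

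The stress-inducible cytosolic Hsp70 pair was read by the Hspa1a/Hspa1b probe set. Its log2 value was 8.57, 8.85, 8.32, 8.68 and 8.39 in Dp3Yah mice, against 9.10, 8.47, 8.83, 8.74 and 8.72 in controls. Control replicate 1 was again the highest mouse, the other 4 controls lay inside the Dp3Yah range, and 2 of 5 Dp3Yah mice were below every control. The change was -0.21 (SE 0.116, 95% interval -0.46 to 0.04, limma adjusted p = 0.921 with the probe set added to the genes) and -0.13 without control replicate 1. With any 1 mouse left out it ran from -0.28 to -0.13. Hspa1a, which also has a probe set of its own, had 7.88, 8.21, 7.70, 7.81 and 7.40 in Dp3Yah mice, against 8.44, 7.65, 8.03, 8.08 and 7.96 in controls, a change of -0.24 (SE 0.15, limma adjusted p = 0.922) that was -0.13 without control replicate 1. With any 1 mouse left out the Hspa1a change ran from -0.34 to -0.13. The deviations of both probe sets from their group means had a Pearson r of 0.91 over the 10 mice, a description, since both can bind Hspa1a transcripts.

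The promoters of the pair are shown because the probe set cannot separate them and their upstream sequence hardly differs. Of the 250 bases before each start, 247 were identical. Counted from 1 at the 5′ end of the window, the differences were C44T, T47C and T249G, with the Hspa1a base first and the Hspa1b base last. The Hspa1b window (RefSeq, GRCm38.p6, chr17:34959239-34959488, minus strand) is printed with its match to the heat shock element GAANNTTC in capitals, at positions -104 to -97 from the start, and the Hspa1a window (chr17:34972157-34972406, minus strand) holds the same match at the same place.
Hspa1b: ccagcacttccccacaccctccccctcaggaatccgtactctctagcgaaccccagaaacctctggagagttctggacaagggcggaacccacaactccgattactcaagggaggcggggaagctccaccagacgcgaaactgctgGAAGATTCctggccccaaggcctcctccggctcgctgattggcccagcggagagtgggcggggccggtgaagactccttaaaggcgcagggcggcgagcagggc

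GAANNTTC reads the same on both strands and is short, and it was present in 6.69% of the 32851 windows. A longer form, in which any 2 bases and GAA follow GAANNTTC, on either strand, was present in 0.466% of windows and in none of the chaperone genes searched, Hspa1a and Hspa1b included. Of those genes, Hspb1 and Dnaja4 also held the short form, each with a pair of matches. They are shown with 10 bases on each side (GRCm38.p6, plus strand), from chr5:135887792-135887819 and chr5:135887812-135887839 for Hspb1 and chr9:54699459-54699486 and chr9:54699497-54699524 for Dnaja4.
Hspb1 first: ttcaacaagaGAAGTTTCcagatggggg
Hspb1 second: gatgggggcaGAACCTTCctggccccgc
Dnaja4 first: gaacctccgcGAACGTTCtgggcctatg
Dnaja4 second: cctcctggcgGAACCTTCcgccggcgcc

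None of these motifs was found in the windows of Hspa2, Hspa4, Hspa4l, Hspa12a or Hspa14, which says only that these letters are not in those windows.

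Hspa8, the constitutive cytosolic Hsp70 (Hsc70), had no detectable change. Its log2 value was 12.81, 12.89, 12.87, 12.88 and 12.77 in Dp3Yah mice, against 12.96, 12.80, 12.88, 12.81 and 12.78 in controls, and the groups overlapped almost completely. The change was -0.01 (95% interval -0.10 to 0.09, limma adjusted p = 0.994), and its 3 probe sets had changes of -0.01, 0.01 and -0.03. Hspa2, known for its need in male germ cells and also expressed in brain, had 8.81, 8.77, 8.68, 8.67 and 8.71 in Dp3Yah mice, against 8.79, 8.72, 8.74, 8.64 and 8.70 in controls. Its interval of -0.08 to 0.10 left room for only a small change, and its within-group SD of 0.057 was reached or passed by 84.2% of genes.

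The mitochondrial Hsp70 Hspa9, which pulls proteins through the inner membrane and takes part in iron-sulphur cluster assembly, had 9.62, 9.50, 9.78, 9.72 and 9.66 in Dp3Yah mice, against 9.72, 9.72, 9.50, 9.54 and 9.54 in controls. Of the Dp3Yah mice 2 lay above every control, replicate 2 was level with the lowest control, and the change of 0.05 (95% interval -0.08 to 0.19) did not pass (limma adjusted p = 0.957).

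The Hsp110 branch, whose members help Hsp70 exchange its nucleotide, had no detectable change. Hspa4 had 10.30, 10.24, 10.37, 10.35 and 10.15 in Dp3Yah mice, against 10.49, 10.29, 10.30, 10.19 and 10.26 in controls, a change of -0.02 (95% interval -0.15 to 0.11, limma adjusted p = 0.979). Hspa4l had 9.28, 9.13, 9.38, 9.39 and 9.12 in Dp3Yah mice, against 9.28, 9.29, 9.26, 9.23 and 9.24 in controls. The means of Hspa4l were both 9.26 (95% interval of the change -0.12 to 0.12, limma adjusted p = 1.0), while its SD was 0.13 in Dp3Yah mice and 0.024 in controls, a difference in spread that was not tested. Dp3Yah replicates 3 and 4 lay above all controls in Hspa4l, and replicates 2 and 5 lay below all of them.

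The divergent members had no detectable change either. Hspa12a, an atypical member with a split ATPase domain, had 9.64, 9.54, 9.55, 9.61 and 9.42 in Dp3Yah mice, against 9.62, 9.54, 9.60, 9.55 and 9.54 in controls (change -0.02, 95% interval -0.12 to 0.08, limma adjusted p = 0.983). Hspa14, which in human cells works at the ribosome with the J-domain protein encoded by DNAJC2, had 7.19, 7.15, 7.28, 7.28 and 7.14 in Dp3Yah mice, against 7.16, 7.26, 7.21, 7.27 and 7.11 in controls (change 0.01, 95% interval -0.09 to 0.11, limma adjusted p = 0.993).

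Of the 9 family genes with their own probe set, 1 passed over all genes, and the same gene, Hspa13, was the only one of the 9 at an unadjusted limma p under 0.05, which 5.08% of all genes reached. The rank method of the study's methods, FCROS, put Hspa13 past its upper threshold (f = 0.999), as it did 2.54% of all genes. It put Hspa5 (f = 0.015) past its lower threshold, with 2.05% of all genes, and gave the Hspa1a/Hspa1b probe set f = 0.00886 and Hspa1a f = 0.00768. This method takes the ranks of fold changes and gives no error per gene. In limma none of these 3 lower values passed.

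The superfamily genes outside the 10 did not pass either. The exchange factor Hsph1 had 9.93, 9.81, 9.81, 9.90 and 9.61 in Dp3Yah mice, against 10.23, 9.77, 9.96, 9.89 and 9.87 in controls (change -0.13, or -0.06 without control replicate 1, limma adjusted p = 0.922). With any 1 mouse left out the Hsph1 change ran from -0.18 to -0.06. Hyou1, the large Hsp70-like exchange factor of the endoplasmic reticulum, changed by -0.03, the testis-enriched Hspa1l by 0.02 and the endothelial Hspa12b by -0.06, each with an interval that included 0.

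**Figure D2:**
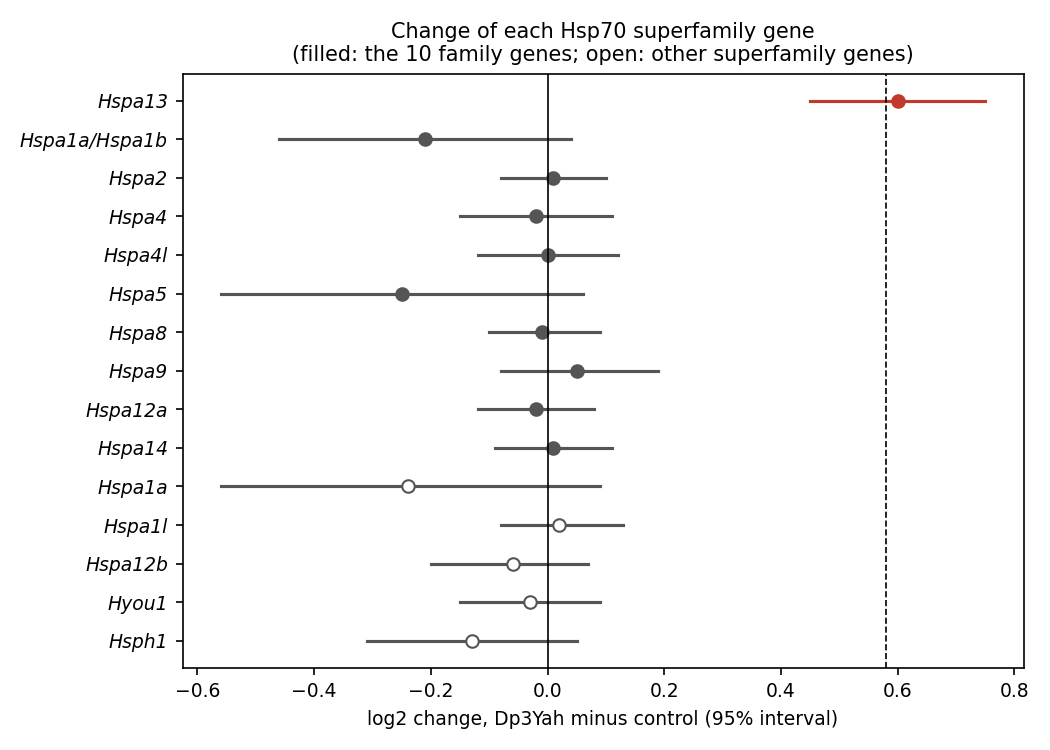
The log2 change (Dp3Yah minus control) of each family gene with its 95% limma interval, Hspa13 in red, family genes filled and other superfamily genes open. The dashed line is the log2 ratio of 3 to 2 gene copies (0.58), the Hspa13 interval of 0.45 to 0.75 includes it, and the intervals of the other 14 features include 0.

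The partners of the endoplasmic reticulum members were spread on both sides of 0. Of 11 measured J-domain proteins and exchange factors, 6 had positive and 5 negative changes, with a median of 0.01, and none passed over all genes or at an unadjusted p under 0.05. Dnajb9, a J-domain co-chaperone of Hspa5, had a change of 0.10, and Dnajc3, which dampens the stress kinase Eif2ak3, had -0.11. Without control replicate 1 these were 0.16, then at an unadjusted p under 0.05, and -0.05. For the partner lists this was the only mouse left out, and the omission was not planned. The share of all genes under 0.05 without it is not given here. The disulphide reductase Dnajc10 and the exchange factor Sil1 both had 0.06. The ubiquilins, which carry proteins to the proteasome and bind HSPA13 in human cells, had changes of -0.05 (Ubqln1), 0.05 (Ubqln2) and -0.05 (Ubqln4).

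Most genes of the unfolded protein response had negative changes, and none passed over all genes. Of 18 measured, 15 had negative and 3 positive changes, with a median of -0.10, while 53.2% of all genes had negative changes. At an unadjusted p under 0.05, which 5.08% of all genes reached, there were 4, all negative. They were Sdf2l1 (-0.41), a chaperone cofactor of the endoplasmic reticulum, and the secreted stress protein gene Creld2 (-0.20). The others were the stress sensor Atf6 (-0.12) and the ubiquitin ligase Syvn1 (-0.14). Sdf2l1 had 7.98, 7.95, 7.45, 7.84 and 7.59 in Dp3Yah mice, against 8.73, 7.85, 7.99, 8.31 and 7.96 in controls, with the groups overlapping. The list mean per array was 8.54 to 8.68 in Dp3Yah mice and 8.64 to 8.93 in controls, where control replicate 1 was the highest and the next control was at 8.73. Without control replicate 1 the median was -0.04, Sdf2l1 (-0.26) was the 1 gene at an unadjusted p under 0.05, and Creld2 was at -0.13. That omission was not planned, and no other mouse was left out for this list. The share of all genes under 0.05 without that mouse is not given here.

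Genes listed with heat shock factor 1, the factor that raises Hspa1a and Hspa1b under stress, also had mostly negative changes. The list of 14 held its targets and the factors Hsf1 and Hsf2, and Hsf1 and Hsp90ab1 were not analysed here. Of the 12 measured genes, Hsf2 among them, 10 had negative and 2 positive changes, and none passed over all genes. The median was -0.09, or -0.04 without control replicate 1. No other mouse was left out for this list, and the omission was not planned. At an unadjusted limma p under 0.05, which 5.08% of all genes reached, there were 2, Hspb1 and Bag3 (-0.16). Without control replicate 1 the same 2 genes were under 0.05, with changes of -0.37 for Hspb1 and -0.12 for Bag3. The share of all genes under 0.05 without that mouse is not given here. The small heat shock gene Hspb1 had 7.51, 7.26, 6.94, 7.26 and 6.83 in Dp3Yah mice, against 8.09, 7.24, 7.51, 7.74 and 7.63 in controls, a change of -0.48 (limma adjusted p = 0.922). Only 2 Dp3Yah mice lay below every control in Hspb1. The list mean per array was 8.76 to 8.92 in Dp3Yah mice and 8.85 to 9.22 in controls, with control replicate 1 highest and the next control at 8.97.

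In the cytosol, 14 J-domain genes were split evenly, 7 with positive and 7 with negative changes. The highest and lowest of those named were Dnajc13, an endosomal co-chaperone of Hspa8, at 0.11 and Dnajb5 at -0.26. Dnajb5 was the 1 gene at an unadjusted p under 0.05, which 5.08% of all genes reached. Dnajb1, the inducible J-domain partner of Hspa1a, had -0.24, or -0.14 without control replicate 1, and Dnaja4 had -0.15. Without that mouse Dnajc13 (0.14) was the 1 J-domain gene of this list at an unadjusted p under 0.05, and Dnajb5 was at -0.23. The share of all genes under 0.05 without control replicate 1 is not given here. Of 11 exchange factors and adaptors, 5 had positive and 6 negative changes with a median of -0.01, and Bag3, which links Hsp70 to autophagy, was the 1 gene at an unadjusted p under 0.05 (-0.16). Bag1 had 0.08 and Stip1, which hands clients to Hsp90, had -0.10, or -0.06 without control replicate 1. Of 12 mitochondrial partners, 8 had positive and 4 negative changes with a median of 0.02, and Timm44, which tethers Hspa9 to the import channel, had -0.11. Without control replicate 1 Timm44 (-0.13) was the 1 mitochondrial partner at an unadjusted p under 0.05. None of these genes passed over all genes.

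**Figure D3:**
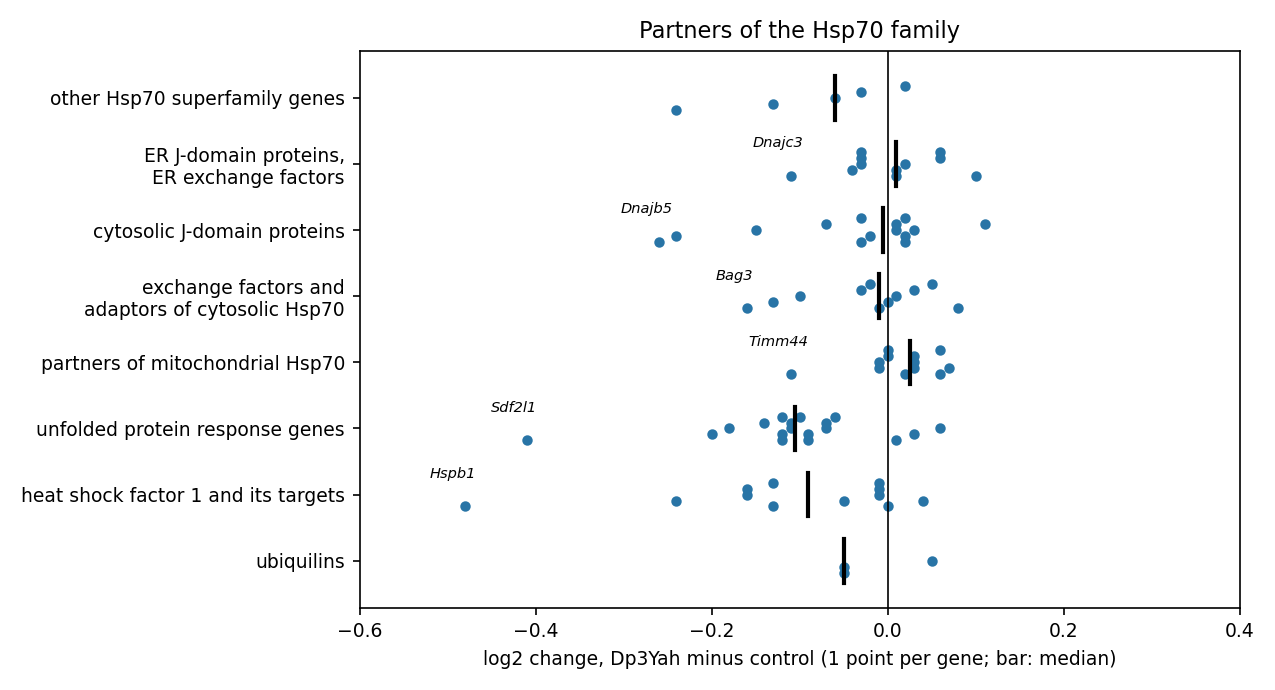
The log2 change (Dp3Yah minus control) of each gene in the lists of Hsp70 partners, 1 point per gene, with a bar at the median of the list. The unfolded protein response genes (median -0.10) and the heat shock factor 1 list (median -0.09) lie mostly left of 0, and the lowest points are Hspb1 (-0.48) and Sdf2l1 (-0.41).

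Control replicate 1 stood out across many of these genes. It was the highest of all 10 mice for Hspa5 (11.04), the Hspa1a/Hspa1b probe set (9.10), Hspa1a (8.44), Hspa4 (10.49), Hspa8 (12.96), Hsph1 (10.23), Hspb1 (8.09), Dnajb1 (8.66), Bag3 (7.58) and Sdf2l1 (8.73). In Hspa13 it was the highest control (8.62). Choroid plexus markers also differed between mice, with a mean over 9 markers of 7.18, 7.62, 6.10, 6.05 and 7.80 in Dp3Yah mice, against 7.81, 5.97, 6.14, 6.21 and 7.91 in controls. Control replicate 1 was thus among 5 mice with high values, as was control replicate 5. The part of this difference in the chaperone values was not tested. Among Dp3Yah mice, replicate 5 was the lowest in Hspa5 (10.03), Hspa1a (7.40), Hspa4 (10.15), Hspa8 (12.77), Hsph1 (9.61), Hspb1 (6.83) and Dnajb1 (7.79). Replicate 3 was the lowest of them in the Hspa1a/Hspa1b probe set (8.32), Bag3 (7.10) and Sdf2l1 (7.45).

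**Figure D4:**
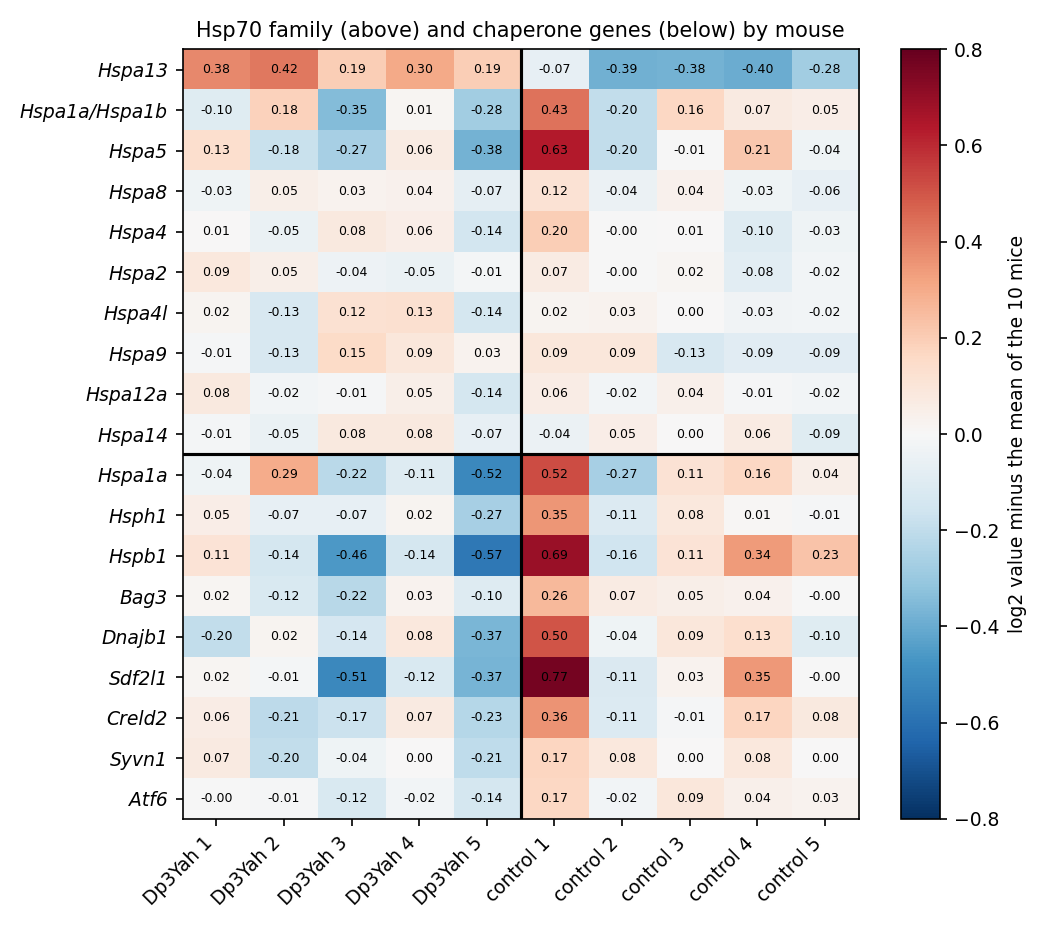
The log2 value of each gene minus its mean over the 10 mice, with the 5 Dp3Yah mice left of the black line and the 5 controls right of it, family genes above and other chaperone genes below. Red is above and blue below the mean of the gene. Hspa13 is the row in which the groups do not overlap, while the column of control replicate 1 is red in most stress-inducible genes, among them Hspa5 (11.04) and Hspb1 (8.09).

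The way the family genes varied between mice of the same genotype was compared for all 45 pairs, with the group means taken off. No pair passed after Benjamini-Hochberg adjustment over the 45, by Pearson r or by Spearman rho. By r the closest pair was Hspa13 and the Hspa1a/Hspa1b probe set (n = 10 mice), while by rho 4 other pairs were closer, led by Hspa5 and Hspa12a (rho = 0.84, 0.0839 after adjustment, with r = 0.71, 0.156 after adjustment). For Hspa13 and the Hspa1a/Hspa1b probe set r was 0.83 (permutation p = 0.00267, 0.12 after adjustment) and rho was 0.78 (permutation p = 0.0109, 0.0922 after adjustment), and r was 0.55 without the 2 mice farthest from the median of Hspa13. Hspa13 and Hspa5 had r = 0.74 (permutation p = 0.0139, 0.156 after adjustment) and rho = 0.61 (permutation p = 0.0671, 0.216 after adjustment), and r was 0.63 without the 2 farthest mice. Control replicate 1 was 1 of those 2 mice for Hspa13. Without Dp3Yah replicate 2 there were 2 passing pairs, without Dp3Yah replicate 3 there was 1, and without any other mouse there were none.

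Over all measured genes outside the 10, those whose within-group deviations were most like a family gene are given as a description with no test, because each is the best of all measured genes over only 10 mice. For Hspa13 they were Tnfrsf21 (r = 0.985), a death receptor of neurons, Dmxl1 (0.971) and Rtl6 (0.969). For the Hspa1a/Hspa1b probe set they were Clvs2 (0.971), Zp1 (0.967) and Fam174b (0.959). For Hspa5 they were Olfr64 (0.956), Cdk2ap2 (0.953) and Creld2 (0.952), of which Creld2 belongs to the unfolded protein response list. For Hspa8 they were Olfr547 (0.985), Ranbp2 (0.962) and Peli1 (0.961). None of these 12 genes differed between the genotypes over all genes.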

How the data were processed

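Total RNA from the right and left hippocampus of each of 10 mice was hybridised to arrays. The authors deposited log2 values per probe set after RMA background correction, normalisation and summary. The submitters' processing notes name RMA, limma and mm10, with versions not given in the sources used here. Of 35556 probe sets, 21789 were annotated to 1 gene, 1621 to several and 12146 were unnamed here. The highest-mean probe set stood for each of 19939 genes. Symbols came from RefSeq (GRCm38.p6) for 19856 genes.

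A linear model with moderated variances (limma 3.58.1 in R 4.3.3) gave the change of each gene, with two-sided p-values adjusted over all genes by Benjamini-Hochberg and a threshold of 0.05. Intervals are moderated 95% intervals. Exact permutation tests used 252 assignments and correlations 100000 resamples (Python 3.11.15, scipy 1.17.1). FCROS was rewritten with a trim of 0.25 and f thresholds of 0.025 and 0.975. Promoter windows were read from RefSeq. The fit was tested on simulated data. The number of arrays limits the precision.

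The members, lists and tests were chosen with earlier results of these data known. Named are the 10 members, other superfamily genes, up to 4 genes per list with the smallest unadjusted p, interval genes and the 3 nearest genes of Hspa13, Hspa1b, Hspa5 and Hspa8; not all are printed. Genes named beyond the rule were chosen after their values were seen. Replicate numbers did not pair the mice. Alternatives were other probe set choices, normalisations, variance models and leaving out each mouse. For the partner lists only control replicate 1 was left out, which was not planned. No other columns were used.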

Additional observations from a re-analysis of the deposited data

Results flagged for a closer look

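Hspa1l, a testis-enriched Hsp70 gene read near the lower end of the array scale, had 1 mouse apart from its group. Dp3Yah replicate 1 was at 5.30, and the nearest of the other 4 Dp3Yah mice was at 5.18, a gap of 0.768 of the whole range of the group, above the critical ratio of 0.71 for 5 samples. Of 30 groups of 5 checked in this way it was the only one, and chance flags about 1 in 20.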

How the results depend on the processing

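The direction of Hspa13 was the same in all 21 alternatives. Its change was 0.57 to 0.66 with 1 mouse left out, and it was 0.60 when all probe sets, named or not, were tested, an alternative chosen after seeing the data that ended the call (limma adjusted p = 0.0749). The number of genes called was 3, against 6 with a trended and robust variance, 5 with array weights, 915 with the rank method, 1 with all probe sets, and 1 to 4 with 1 mouse left out. The rank method alone put Hspa5, the Hspa1a/Hspa1b probe set and Hspa1a past a threshold. Its lower threshold, which 2.05% of all genes passed, was also passed by 4 of 18 unfolded protein response genes. So it was by 4 of 12 in the heat shock factor 1 list, 3 of 14 cytosolic J-domain genes and 1 of 11 exchange factors and adaptors. These lists share some genes, and no gene of the partner lists passed the upper threshold. Other reversals were of changes near 0: Hspa4l was -0.01 with a second quantile normalisation and Hspa8 0.01 with median centring. With 1 mouse left out, changes ran from -0.01 to 0.03 for Hspa2, -0.05 to 0.02 for Hspa4, -0.03 to 0.03 for Hspa4l, -0.02 to 0.02 for Hspa8, -0.04 to 0.02 for Hspa12a, -0.02 to 0.02 for Hspa14, -0.01 to 0.05 for Hspa1l and -0.06 to 0.01 for Hyou1. The cause was not tested. Passing pairs numbered 0 to 2 with 1 mouse left out. With the replicate number as a block, 3 genes were called and Hspa13 passed (0.60, limma adjusted p = 0.0452), although mice of the same number did not deviate together (r from -0.36 to 0.32, and 2 of 5 Dp3Yah mice closest to their own number). In Hspa5, however, mice of the same number deviated in the same direction, and the block lowered its SE from 0.143 to 0.0721. The Hspa5 change stayed at -0.25 and did not pass with the block (limma adjusted p = 0.941). Detection of each gene above array background was not analysed here.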
